A study of Mus musculus with 54 samples.

Results

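The genes described here are 6 that handle ketone bodies and other monocarboxylates in the proximal tubule: Bdh1, Oxct1, Acat1, Slc16a1, Slc5a8 and Slc5a12. They were taken by symbol from the deposited expression table, which holds 19068 genes. All 6 symbols had 1 row each, and all 6 were among the 15424 genes that were tested because their mean reached 1 TPM. TPM, the unit of the table, is a level corrected for transcript length, so it can be set side by side between genes. The measurements came from late proximal tubules of mouse kidney that stained with the lectin LTL but not for the glucose cotransporter SGLT2. Each sample held 70 to 80 tubules cut out by laser. The mice were DBA males, 14 weeks old, treated for 2 weeks. The table covered 52 of the 54 samples in the labels, in 9 groups.

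Nondiabetic mice (Ins2+/+) formed 4 groups of 6: Sglt1+/+ on vehicle, Sglt1-/- on vehicle, Sglt1+/+ on dapagliflozin and Sglt1-/- on dapagliflozin. Diabetic littermates carried the Akita allele of the insulin gene (Ins2 Akita/+), a mutation that misfolds the hormone and leads to insulin deficiency. They formed the same 4 groups, with 6, 6, 5 and 6 libraries in that order, and another, Sglt1+/+ on semaglutide, with 5 libraries. Dapagliflozin, an inhibitor of SGLT2, was given in the diet at 10 mg/kg. Semaglutide, an agonist of the GLP-1 receptor, was given at 3 nmol/kg body weight per day. Sglt1 is another name of Slc5a1, which takes up glucose in the S3 segment. The labels do not say whether the samples of a group came from separate mice, so p-values measure the spread between these samples.

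Ketone bodies are made in the liver from fatty acids when insulin is low, and other organs burn them. In the cells that use them, 3-hydroxybutyrate is oxidised to acetoacetate by the mitochondrial dehydrogenase BDH1. The transferase SCOT, encoded by Oxct1, then moves coenzyme A from succinyl-CoA onto acetoacetate, and the thiolase ACAT1 splits the product into acetyl-CoA. In the kidney, filtered ketone bodies and lactate are recovered from the urine by the apical sodium-coupled carriers SLC5A8 (SMCT1) and SLC5A12 (SMCT2). SMCT1 has the higher affinity and SMCT2 the lower. MCT1, encoded by Slc16a1, moves monocarboxylates with protons and in the tubule is known from the basolateral side.

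On the mouse build GRCm38 the genes lie on 6 chromosomes. Bdh1 is on chromosome 16 from 31422280 to 31458901 (plus strand), Oxct1 on chromosome 15 from 4026383 to 4155344 (plus strand) and Acat1 on chromosome 9 from 53580522 to 53610382 (minus strand). Slc5a8 is on chromosome 10 from 88885992 to 88929515, Slc5a12 on chromosome 2 from 110597298 to 110647779 and Slc16a1 on chromosome 3 from 104638668 to 104658462, all on the plus strand. All 6 are annotated as protein-coding.

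RefSeq promoters (GRCm38.p6) were matched for 4 of the 6 genes. Those of Slc5a8 and Slc16a1 are shown as 250 bases before the start site, because these 2 carriers stand at opposite ends of expression in the tubules. Both are on the plus strand and printed 5′ to 3′, Slc5a8 from chr10:88885742-88885991 and Slc16a1 from chr3:104638414-104638663, and capitals mark a match to the E-box CACGTG.
Slc5a8: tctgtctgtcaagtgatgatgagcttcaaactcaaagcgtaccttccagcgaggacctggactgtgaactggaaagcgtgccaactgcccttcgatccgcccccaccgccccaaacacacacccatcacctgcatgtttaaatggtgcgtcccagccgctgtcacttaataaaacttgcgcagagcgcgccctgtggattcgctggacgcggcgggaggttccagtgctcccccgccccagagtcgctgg
Slc16a1: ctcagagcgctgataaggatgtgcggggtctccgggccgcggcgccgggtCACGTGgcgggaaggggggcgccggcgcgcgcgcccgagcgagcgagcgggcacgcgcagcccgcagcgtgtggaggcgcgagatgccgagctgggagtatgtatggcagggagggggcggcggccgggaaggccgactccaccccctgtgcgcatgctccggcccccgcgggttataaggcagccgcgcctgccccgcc
The Slc16a1 sequence held 37 CpG dinucleotides and 76.4% G and C, and 97.8% of 32851 promoters of the same length held fewer CpG. The Slc5a8 sequence held 17 CpG and 58.8% G and C, with 76.5% of promoters holding fewer. The median promoter held 6 CpG, and so did that of Oxct1. Searched on both strands, CACGTG occurred in 6.02% of all promoters and once in that of Slc16a1. TATAAA (12.4% of promoters), AGGTCA (14%) and GTTAAT (6.43%) had no match in either of the printed sequences. A match describes letters and not a site in use.

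The libraries were checked against their labels first. Slc5a1 averaged between 55 and 86.2 TPM in the 5 wild-type groups and between 0.776 and 0.828 TPM in the 4 knockout groups. The summed level of 5 S3 markers (Slc7a13, Cyp7b1, Atp11a, Acsm3 and Slc22a30) ranged from 2511 to 8631 TPM. That of 6 markers of the earlier S1 and S2 segments ranged from 235 to 2671 TPM, and that of 42 markers of other kidney cells from 1057 to 3942 TPM. Of the 42, Umod (569.8 TPM on average), Csf1r (320.0) and Slc12a1 (268) were the highest and weigh most in this sum. Umod and Slc12a1 were listed for the thick ascending limb and Csf1r for macrophages and dendritic cells. The share of mitochondrial ribosomal RNA lay between 20.3 and 52.3%. The TPM of a library summed to between 984393 and 2253870, above the sum that the unit implies in 51 of 52 libraries. Read numbers were not used here, so counting error is unknown. Fewer cells of a type and less RNA per cell cannot be told apart in these pooled samples.

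Among the ketone enzymes, Oxct1 was the most abundant, with 1834 ± 408 TPM (SD, n = 52 libraries) and a range of 883 to 2714. It stood at rank 35 of the 19068 genes by mean level, and 99.8% of tested genes were lower. Acat1 had 278 ± 70.2 TPM (127 to 419), higher than 97.4% of tested genes. Bdh1 had 234 ± 57.9 TPM (117 to 353), higher than 96.7% of them. The transferase thus exceeded the dehydrogenase and the thiolase in every library. The ratio of Oxct1 to Bdh1 had a median of 7.83 and stayed between 5.44 and 10.7 in 52 libraries, and that of Oxct1 to Acat1 a median of 6.77 with limits of 4.82 and 8.72. Acat1 was above Bdh1 in 45 of the 52.

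Of the carriers, Slc5a8 was abundant, Slc5a12 lay near the middle of the tested genes and Slc16a1 near the bottom. Slc5a8 had 201 ± 57.9 TPM (58.8 to 319), higher than 96% of tested genes. Slc5a12 had a mean of 11.5 ± 14.2 TPM, higher than 45.4% of tested genes, and a median of 5.63. Its lowest library (0.317) and its highest (61) were 192-fold apart. Slc16a1 had 1.04 ± 0.799 TPM. It was blank in 1 library, taken as 0, and below 1 TPM in 30 of 52 libraries, so only 0.577% of tested genes had a lower mean. Slc5a8 was above Slc5a12 in 52 of 52 libraries, with a median ratio of 39.8 (1.21 to 401).

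**Figure D1:**
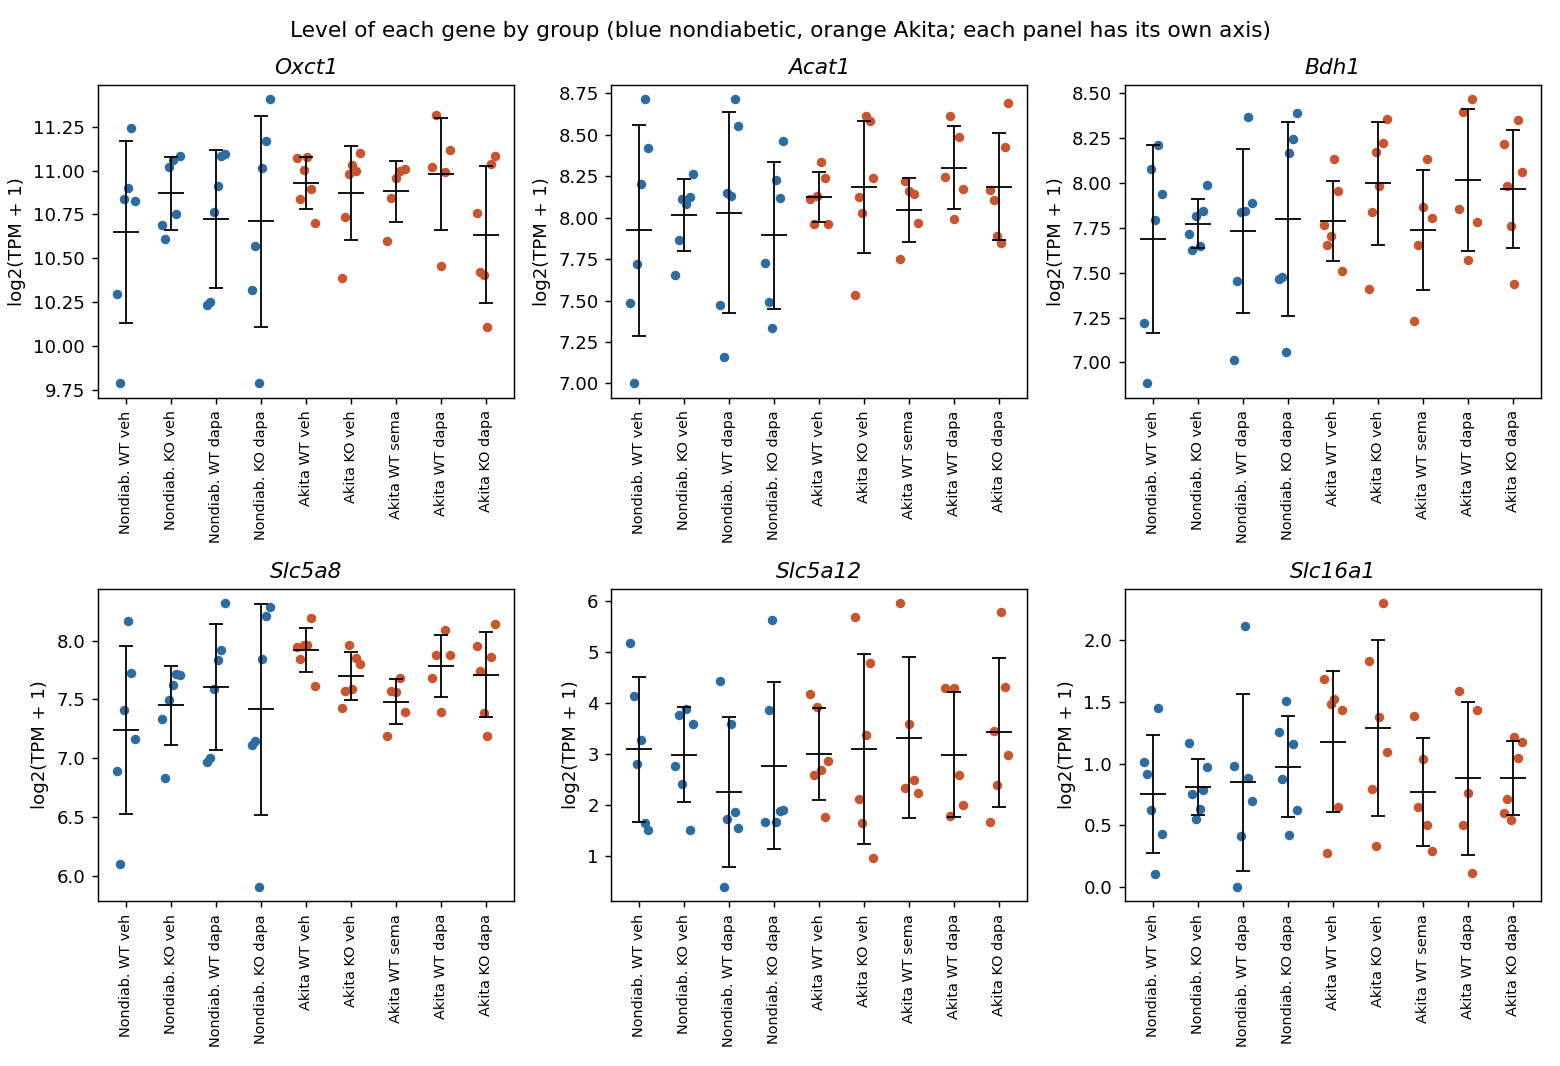
Level of each gene, as log2(TPM + 1), in the 9 groups. Each point is 1 library and the bars are the group mean ± SD. WT and KO are Sglt1 wild-type and knockout, veh, dapa and sema the vehicle, dapagliflozin and semaglutide groups. The groups overlap in all 6 panels, and Slc5a12 has the widest spread within groups.

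Slc5a8 had a wider range among nondiabetic than among Akita samples, a difference in spread that was not tested. In the nondiabetic wild-type vehicle group its lowest, median and highest values were 67.6, 156 and 286 TPM, and in the knockout vehicle group 113, 188 and 209.8. On dapagliflozin they were 124, 209.6 and 319 in nondiabetic wild-type and 58.8, 185 and 311 in nondiabetic knockout samples. The 2 lowest libraries of all, at 58.8 and 67.6, were thus both nondiabetic, 1 of each genotype. They were knockout dapagliflozin replicate 3 and wild-type vehicle replicate 2. These 2 also had the lowest mean log2(TPM + 1) of the S3 markers, 8.15 and 8.26, against a median of 9.51 over all libraries. The part that S3 content has in their Slc5a8 values was not tested. In Akita samples on vehicle the values were 195, 247 and 291 in wild-type and 171, 206 and 248 in knockout. In Akita knockout samples on dapagliflozin they were 145, 222 and 281. The 5 Akita wild-type libraries on dapagliflozin had 167, 205, 234, 235 and 271 TPM. None of the Akita libraries was below 145, and their upper values lay inside the nondiabetic range.

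With semaglutide the 5 Akita wild-type libraries had Slc5a8 at 145, 167, 188, 189 and 204 TPM. Only the highest of them, 204, was above the lowest Akita wild-type vehicle library at 195, so the groups overlapped by these 2 libraries. The difference from vehicle was -0.44 on the log2 scale (SE 0.28, 95% interval -1.01 to 0.13). It did not pass in limma (unadjusted p 0.124, adjusted p 0.998). With the compared groups alone the unadjusted p was 0.00315 (SE 0.12, adjusted p 0.433), and with array weights 0.0458 (adjusted p 0.57). Markers of other cells were higher on semaglutide by estimate, with 29 of 39 tested above 0, and so were 6 of 6 markers of the S1 and S2 segments (median log2 difference 0.68). None of these markers passed in limma. Over all tested genes the median difference was -0.01, and 0% passed. The summed level of the 42 markers was 1377 to 2303 TPM on semaglutide and 1255 to 2013 TPM on vehicle. With the score of other cells, the mean log2(TPM + 1) of their 42 markers, as a covariate the Slc5a8 difference was -0.25 (unadjusted p 0.295), and with the log2 sum of TPM -0.30 (unadjusted p 0.312). The mean was 179 ± 22.8 TPM (n = 5) against 243 ± 31.2 (n = 6).

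Slc5a12 had a few high libraries in most groups. In nondiabetic samples its lowest, median and highest values were 1.85, 7.33 and 34.8 TPM in wild-type vehicle, 1.85, 8.4 and 13.8 in knockout vehicle, 0.317, 2.49 and 20.5 in wild-type dapagliflozin, and 2.17, 2.72 and 48.5 in knockout dapagliflozin samples. In Akita samples they were 2.41, 5.9 and 17 in wild-type vehicle, 0.967, 6.36 and 50.3 in knockout vehicle, and 2.17, 8.36 and 53.5 in knockout dapagliflozin samples. The 5 Akita wild-type libraries on dapagliflozin had 2.44, 2.99, 5, 18.5 and 18.7, and the 5 on semaglutide 3.75, 4.03, 4.6, 11 and 61. A single library therefore made most of several group means, and the lowest and highest group means (6.44 and 16.9 TPM) differed by less than the SD within the latter group (24.8).

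Slc16a1 group means ran from 0.769 ± 0.591 TPM in nondiabetic wild-type vehicle to 1.7 ± 1.34 in Akita knockout vehicle samples (n = 6 each). Its highest libraries were 3.93 in that group and 3.32 in nondiabetic wild-type dapagliflozin samples, the group that also held the blank. The 3 enzymes had narrow ranges of group means. Oxct1 lay between 1638 ± 435 TPM in Akita knockout dapagliflozin (n = 6) and 2058 ± 416 in Akita wild-type dapagliflozin samples (n = 5). Acat1 lay between 246 ± 74.5 in nondiabetic knockout dapagliflozin (n = 6) and 318 ± 55.1 in Akita wild-type dapagliflozin samples. Bdh1 lay between 216 ± 69.7 in nondiabetic wild-type vehicle (n = 6) and 266 ± 73.8 in Akita wild-type dapagliflozin samples. When the 9 groups were put in order of their mean log2 level, none of the 8 steps between neighbours exceeded the larger of the 2 SDs, for any of the 6 genes.

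The main question for these genes was whether diabetes changed them. Averaged over both genotypes and over vehicle and dapagliflozin, 0 of 6 passed in limma (adjusted p under 0.05 by Benjamini-Hochberg across the 15424 genes), where 0.966% of tested genes passed (121 higher and 28 lower in Akita). At an unadjusted p under 0.05 there were 2 of 6, Slc5a8 and Acat1, both higher in Akita, against 13.4% of tested genes (8.61% counting only higher ones). All 6 estimates lay above 0, with a median of 0.22 on the log2 scale against 0.03 over all tested genes. This median describes the 6 genes and is not a test.

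Slc5a8 had the largest estimate among the abundant genes in that comparison. It averaged 186 ± 71.8 TPM in 24 nondiabetic and 222 ± 38.3 TPM in 23 Akita libraries, and 19 of the 23 Akita libraries were above the nondiabetic median. The log2 difference was 0.35 (SE 0.14, 95% interval 0.08 to 0.62), with an unadjusted p of 0.0132 and an adjusted p of 0.232 in limma. The score of other cells went the opposite way: the 3 libraries with the highest scores (4.51, 4.16 and 4.04) were nondiabetic vehicle samples. The summed level of these markers was 1311 to 3942 TPM in the 4 nondiabetic groups and 1057 to 2181 TPM in the 4 Akita groups compared. Of the 39 markers tested, 36 had estimates that were not above 0, 14 of them at an unadjusted p under 0.05, and 0 passed in limma. Of all tested genes, 4.8% were lower at an unadjusted p under 0.05 and 0.966% passed, with a median difference of 0.03. None of the 42 was at 0 in every library. With that score as a covariate the Slc5a8 difference was 0.15 (unadjusted p 0.235), and without those 3 libraries it was 0.25 (unadjusted p 0.0626). Other limma fits changed it less. It was 0.35 with the score of S1 and S2 markers, described further on (unadjusted p 0.00843, adjusted p 0.174). Mitochondrial ribosomal RNA as a covariate gave 0.37 (0.0104 and 0.232), and the log2 sum of TPM 0.30 (0.0306 and 0.424). Array weights gave 0.27 (0.0173 and 0.251). Leaving out 1 library at a time gave 0.27 to 0.40, lowest without nondiabetic knockout dapagliflozin replicate 3.

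Acat1 averaged 262 ± 82.3 TPM in nondiabetic and 297 ± 58.5 TPM in Akita libraries. Its log2 difference was 0.23 (SE 0.11), with an unadjusted p of 0.0466 and an adjusted p of 0.362 in limma. With the score of other cells as a covariate it was 0.07 (unadjusted p 0.495), and without the 3 libraries 0.13 (unadjusted p 0.234). Bdh1 differed by 0.19 (SE 0.11), Oxct1 by 0.12 (SE 0.11), Slc16a1 by 0.21 (SE 0.16) and Slc5a12 by 0.35 (SE 0.40). None of these 4 reached an unadjusted p under 0.05 in this fit. With the score of other cells as a covariate, Slc5a12 moved the other way from Slc5a8, to 0.90 (SE 0.37, unadjusted p 0.0187, adjusted p 0.437 in limma), and so did Slc16a1, to 0.35 (SE 0.16, unadjusted p 0.0321, adjusted p 0.526). Bdh1 came to 0.02 with that score. With the score of S1 and S2 markers as a covariate, described further on, Slc5a12 was 0.39 (SE 0.16, unadjusted p 0.0224, adjusted p 0.257 in limma) and Bdh1 0.19 (SE 0.09, unadjusted p 0.0493, adjusted p 0.351). Which of the 6 genes passed before adjustment thus depended on the covariate, and none passed after it. Without a covariate, the 95% intervals bound the ketone enzymes to at most 1.26-fold for Oxct1, 1.33-fold for Bdh1 and 1.38-fold for Acat1 higher in Akita samples.

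In wild-type vehicle samples alone, the Slc5a8 estimate was the largest of the 120 in size, those of Slc5a12 aside. It was a log2 difference of 0.68 (SE 0.27, 95% interval 0.14 to 1.22), with an unadjusted p of 0.0151 and an adjusted p of 0.346 in limma. All 6 Akita libraries were above the nondiabetic median of 156 TPM, while the nondiabetic values from 67.6 to 286 spanned most of the Akita range from 195 to 291. In this comparison 0.389% of tested genes passed the adjusted threshold and 10.2% the unadjusted one. The difference was 0.42 with the score of other cells as a covariate (unadjusted p 0.0741) and 0.30 without the 3 libraries with the highest scores (unadjusted p 0.28), 2 of which belong to the nondiabetic group compared here. With the log2 sum of TPM as a covariate it was 0.50 (unadjusted p 0.0858), so it no longer passed before adjustment in any of these 3 fits. The sum of TPM averaged 1422237 in the nondiabetic and 1857901 in the Akita group, and mitochondrial ribosomal RNA 33.4% and 40.1%. Oxct1 differed by 0.28 (SE 0.21), Acat1 by 0.20 (SE 0.23), Bdh1 by 0.10 (SE 0.22), Slc16a1 by 0.42 (SE 0.31) and Slc5a12 by -0.09 (SE 0.79). None of these 5 reached an unadjusted p under 0.05. In knockout vehicle samples the Slc5a8 difference was 0.25 (SE 0.27), in wild-type dapagliflozin samples 0.18 (SE 0.28) and in knockout dapagliflozin samples 0.29 (SE 0.27). The interaction of diabetes with knockout was -0.16 (SE 0.27) and that with dapagliflozin -0.23 (SE 0.27), so a difference of the diabetes effect between genotypes or drugs was not detectable.

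**Figure D2:**
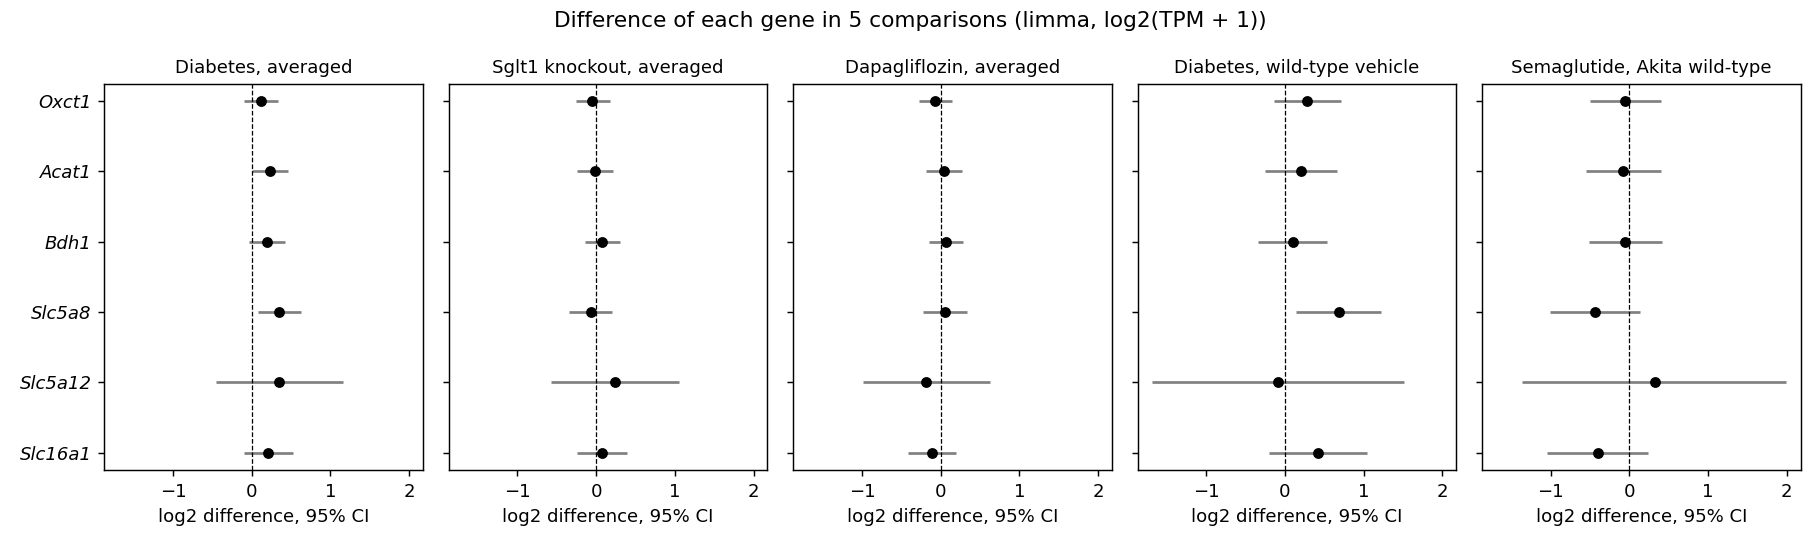
Log2 difference of each gene with its 95% confidence interval from limma, in 5 comparisons. Positive values are higher in Akita, knockout or treated samples. The intervals of Slc5a8 for diabetes lie above 0 before adjustment over all tested genes, as does the averaged one of Acat1, and Slc5a12 has the widest intervals.

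Loss of SGLT1 was compared over diabetes and over vehicle and dapagliflozin. None of the 6 genes passed, where 0.0519% of tested genes did (8 genes), and none reached an unadjusted p under 0.05, against 7.22% of tested genes. Estimates ran from -0.07 for Slc5a8 to 0.24 for Slc5a12 on the log2 scale, with 3 above and 3 below 0. Oxct1 differed by -0.05 (95% interval -0.26 to 0.17), Acat1 by -0.02 (-0.25 to 0.21) and Bdh1 by 0.08 (-0.14 to 0.30). The interval of Slc5a8 was -0.34 to 0.20. For these 4 genes the intervals leave room for no more than 1.23-fold higher levels in knockout samples. On the lower side they reach further, to -0.34 on the log2 scale for Slc5a8.

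Dapagliflozin, averaged over diabetes and genotype, also moved none of the 6 past the threshold. The share of tested genes that passed was 0%, and 631 (4.09%) reached an unadjusted p under 0.05, none of them among the 6. Estimates ran from -0.18 for Slc5a12 to 0.07 for Bdh1. Oxct1 had 1858 ± 347 TPM in 24 vehicle and 1797 ± 499 in 23 dapagliflozin libraries, a log2 difference of -0.07 (95% interval -0.28 to 0.15). Slc5a8 had 199 ± 53.8 and 209 ± 66.9 TPM, a difference of 0.05 (-0.22 to 0.33). In Akita wild-type samples alone the estimates were 0.23 for Bdh1 (SE 0.23), 0.05 for Oxct1 (SE 0.22), 0.18 for Acat1 (SE 0.24), -0.30 for Slc16a1 (SE 0.32), -0.14 for Slc5a8 (SE 0.28) and -0.01 for Slc5a12 (SE 0.83).

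Semaglutide was compared with vehicle in Akita wild-type samples. Again 0 of 6 passed, with 0% of tested genes past the adjusted threshold and 800 (5.19%) at an unadjusted p under 0.05. Besides Slc5a8, given above, Slc16a1 had an estimate of -0.40 (SE 0.32), with 0.227, 0.416, 0.569, 1.05 and 1.61 TPM on semaglutide against a vehicle range of 0.214 to 2.21. All 5 semaglutide libraries were below the Slc16a1 vehicle median of 1.76 TPM, but the groups overlapped because the vehicle range reached lower. Oxct1 differed by -0.05 (95% interval -0.50 to 0.40), Bdh1 by -0.05 (-0.51 to 0.41), Acat1 by -0.08 (-0.55 to 0.40) and Slc5a12 by 0.32 (-1.36 to 1.99). The intervals of the 3 enzymes still included the -0.44 estimated for Slc5a8. Semaglutide and dapagliflozin were also set against each other, where Slc5a8 differed by -0.31 (SE 0.29) and Bdh1 by -0.28 (SE 0.24), lower on semaglutide. Both drug comparisons share the vehicle samples.

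Over all 20 comparisons, interactions included, 0 of 120 estimates passed the adjusted threshold in limma, and the smallest adjusted p was 0.232 (0.0762% of estimates over all tested genes passed). Of the 120, 3 (2.5%) reached an unadjusted p under 0.05, the ones for Slc5a8 and Acat1 given above, against 5.33% over all tested genes. In the 14 comparisons of 2 groups, 0 of 6 genes had groups without overlap, where 0.365% of tested genes did (0.149 to 0.746% by comparison). The SE of a log2 difference was 0.11 to 0.29 for Bdh1, Oxct1, Acat1 and Slc5a8 and 0.40 to 0.87 for Slc5a12.

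Within groups the 6 genes fell into sets that varied together from library to library. Relations were computed over 52 libraries after subtracting each group's mean log2(TPM + 1), 27 in all, each with a permutation test of 100000 resamples and Benjamini-Hochberg adjustment. By both Pearson's r and Spearman's rho, 23 of the 27 passed. The share of other gene pairs that would pass was not computed. The 3 enzymes and Slc5a8 varied together. Bdh1 and Oxct1 had r = 0.879 and rho = 0.821, and Oxct1 and Acat1 r = 0.867 and rho = 0.84. Oxct1 and Slc5a8 had r = 0.886 and rho = 0.824. Those 3 relations had a permutation p of 1e-05 by both measures, the smallest these resamples can give (adjusted 2.45e-05 for r and 3.37e-05 for rho). Without the 2 libraries farthest from the median of the first gene, r was 0.849, 0.848 and 0.84. Bdh1 with Acat1 (r = 0.818, rho = 0.792), Bdh1 with Slc5a8 (0.806 and 0.83) and Acat1 with Slc5a8 (0.774 and 0.778) had the same p, and without 2 libraries r was 0.782, 0.76 and 0.729. The genes share each library's depth and cell content, and TPM are shares of a library, so these relations are not independent of each other. Some genes outside ketone handling, given further on, had an r as high without subtraction of group means. Oxct1 had 0.898 with Akr1c14, and Slc5a8 had 0.905 with Pank1. The shared variation was thus not shown to be particular to these 4 genes.

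Slc5a12 went the other way. With Bdh1 it had r = -0.61 and rho = -0.488 (permutation p 1e-05 and 0.00034, adjusted 2.45e-05 and 0.000656). With Oxct1 r was -0.486 and rho -0.361 (p 0.00028 and 0.00909, adjusted 0.00042 and 0.0129), and with Slc5a8 -0.48 and -0.418 (p 0.00028 and 0.00211, adjusted 0.00042 and 0.00316). The relation to Acat1 was -0.404 and -0.348 (p 0.003 and 0.0122, adjusted 0.00368 and 0.0157). Without the 2 farthest libraries r was -0.565, -0.405, -0.383 and -0.51 in that order. With Slc16a1 it had r = 0.573 and rho = 0.584 (permutation p 2e-05 and 1e-05), and r = 0.543 without 2 libraries. Slc5a12 was also related to the score of S1 and S2 markers, the mean log2(TPM + 1) of Slc5a2, Slc6a19, Slc34a1, Slc4a4, Slc13a3 and Slc22a6. There r was 0.916 and rho 0.891 (permutation p 1e-05 for both), and r was 0.917 without the 2 libraries farthest from the median score. The part that S1 and S2 cells have in the Slc5a12 values was not tested. Slc16a1 was related to that score too, with r = 0.589 and rho = 0.572 (permutation p 1e-05 and 2e-05), and r = 0.545 without 2 libraries.

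**Figure D3:**
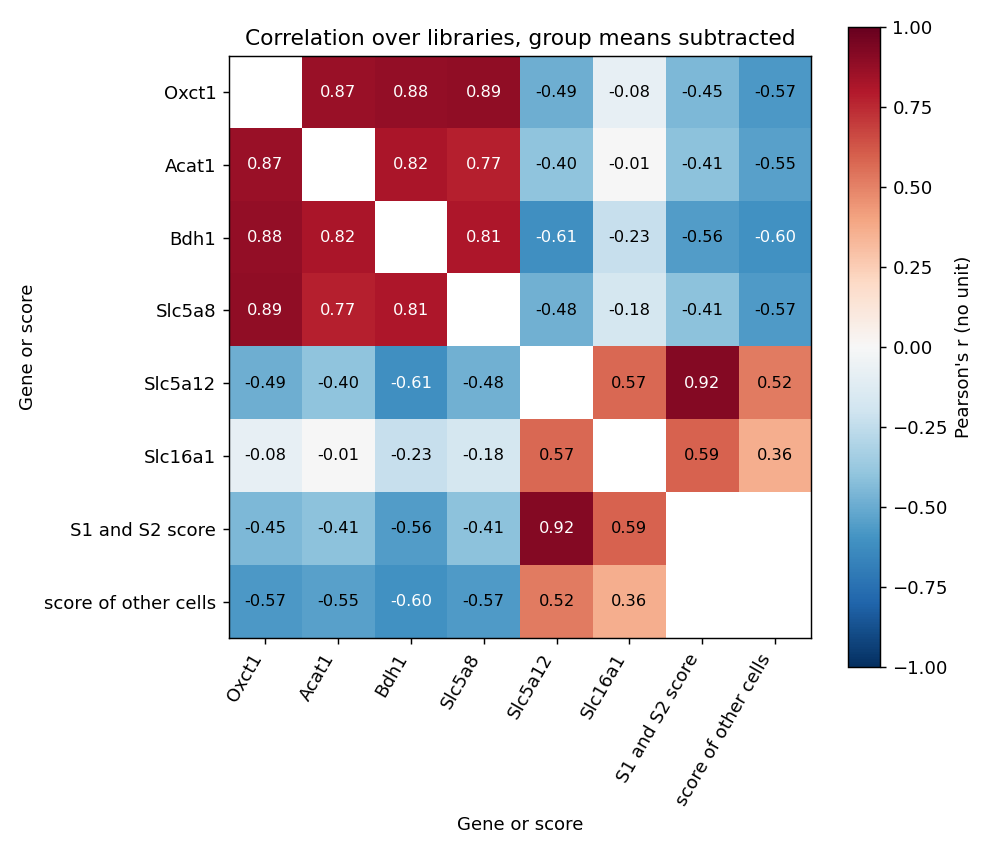
Pearson's r over 52 libraries after subtracting group means, for the 6 genes and the scores of S1 and S2 markers and of markers of other cells. Oxct1, Acat1, Bdh1 and Slc5a8 form a positive block, and Slc5a12 is positive with the S1 and S2 score (0.916) and negative with the block.

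The S1 and S2 score was negatively related to the block: r was -0.559 for Bdh1, -0.446 for Oxct1, -0.411 for Acat1 and -0.412 for Slc5a8 (rho -0.465, -0.337, -0.348 and -0.345, largest permutation p 0.0153, adjusted 0.0179), and -0.575, -0.47, -0.413 and -0.439 without the 2 farthest libraries. The score of other cells was related in the same direction, with r = -0.602 for Bdh1, -0.573 for Oxct1, -0.57 for Slc5a8 and -0.545 for Acat1 (rho -0.563, -0.545, -0.53 and -0.537, largest permutation p 9e-05, adjusted 0.000187), and -0.547, -0.525, -0.537 and -0.481 without 2 libraries. It was positive for Slc5a12 (r = 0.523, rho = 0.449, permutation p 5e-05 and 0.00093) and Slc16a1 (r = 0.364, rho = 0.44, permutation p 0.00793 and 0.00123), with r = 0.473 and 0.369 without 2 libraries. The 4 relations that did not pass were those of Slc16a1 to Bdh1 (r = -0.232, permutation p 0.0982, adjusted 0.11), Oxct1 (-0.082, p 0.561, adjusted 0.583), Acat1 (-0.00656, p 0.963, adjusted 0.963) and Slc5a8 (-0.177, p 0.208, adjusted 0.224). Their rho were -0.271, -0.0984, -0.113 and -0.203, with a smallest permutation p of 0.0517 (adjusted 0.0582).

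**Figure D4:**
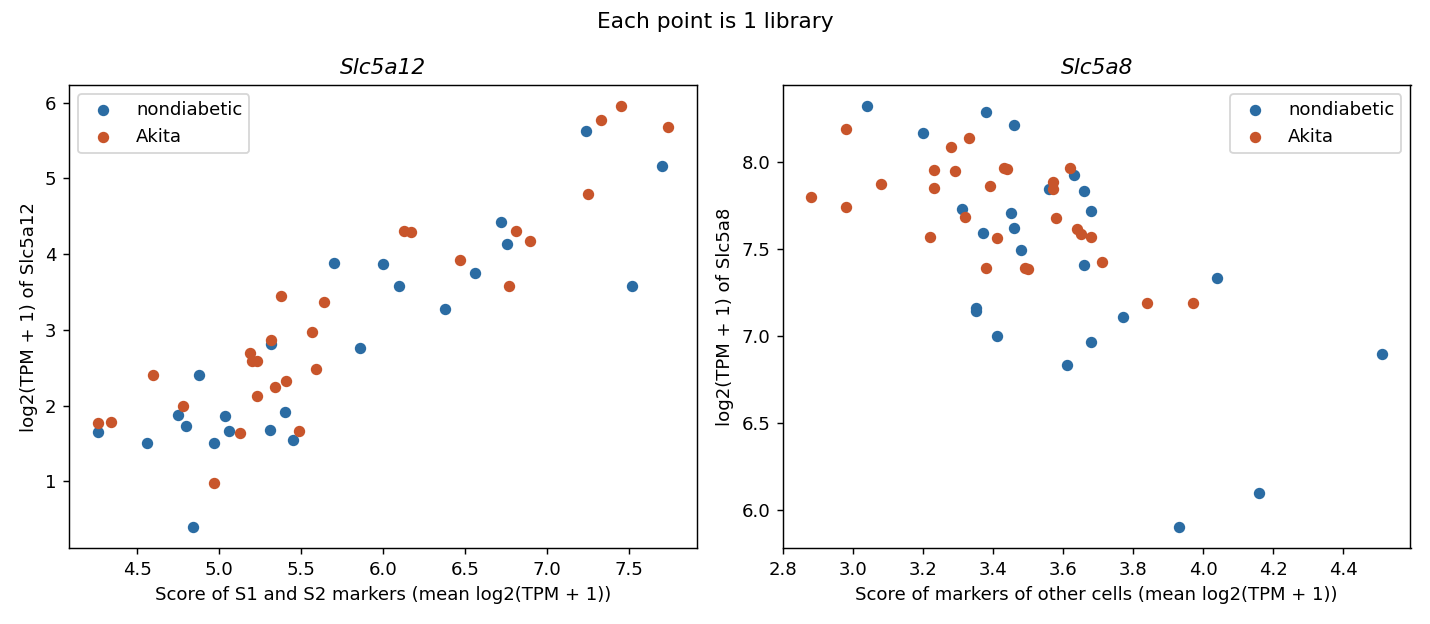
Left, log2(TPM + 1) of Slc5a12 against the score of S1 and S2 markers. Right, log2(TPM + 1) of Slc5a8 against the score of markers of other cells. Each point is 1 of 52 libraries, blue nondiabetic and orange Akita, without subtraction of group means. Slc5a12 is high where the S1 and S2 score is high, and the libraries with the highest score of other cells (4.51, 4.16 and 4.04) are nondiabetic.

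The genes most like each of the 6 over all 52 libraries, were searched among 8364 genes whose mean reached 10 TPM. They are given by Pearson's r of log2(TPM + 1) as a description. For Slc5a12 they were Slc5a2 (0.901), the SGLT2 gene of the early segments, Gatm (0.89), which makes the creatine precursor guanidinoacetate, and the organic anion transporter Slc22a8 (0.868). Slc5a2 is also 1 of the 6 markers in the S1 and S2 score. The tubules were chosen as negative for SGLT2, yet Slc5a2 had a mean of 41.7 TPM (3.93 to 205). The level of Slc5a12 was below that of Slc5a2 in 52 of 52 libraries, with a median ratio of 0.279.

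For Acat1 the nearest genes were Acadm (0.894), the medium-chain acyl-CoA dehydrogenase of fatty acid oxidation, Emc7 (0.858) and Eci3 (0.846), an enoyl-CoA isomerase. Bdh1 was closest to the aldo-keto reductase Akr1c14 (0.835), Acadm (0.831) and the glutathione synthetase Gss (0.826). Oxct1 was closest to Akr1c14 (0.898), the cytochrome Cyp2j5 (0.887) and the brush border protease Mep1a (0.88), and Slc5a8 to the pantothenate kinase Pank1 (0.905), Cyp2j5 (0.889) and M6pr (0.888). Slc16a1 had weaker likenesses, the highest to Igsf11 (0.72), Clic5 (0.677) and Ugt1a7c (0.617).

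Other genes of ketone metabolism were read from a list of 8, of which 6 were tested. In averaged diabetes, knockout and dapagliflozin 0 of the 6 passed, where 0.966%, 0.0519% and 0% of tested genes did. Aacs, a cytosolic enzyme that activates acetoacetate with coenzyme A, had 494 TPM (194 to 812), and Bdh2, a cytosolic dehydrogenase, had 118 TPM (50.5 to 187). In averaged diabetes Bdh2 differed by 0.31 on the log2 scale (SE 0.10, unadjusted p 0.0022, adjusted p 0.109 in limma). Aacs differed by 0.30 (SE 0.12, unadjusted p 0.0183, adjusted p 0.261 in limma). Neither passed the adjusted threshold. At an unadjusted p under 0.05 there were 3 of the 6, Bdh2 and Aacs among them, all higher in Akita samples. Of all tested genes, 8.61% were higher at that threshold and 13.4% passed it in either direction.

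Of 13 other members of the SLC16 family 11 were tested, and 1 passed in averaged diabetes, where 0.966% of all tested genes did. At an unadjusted p under 0.05 there were 3 others of the 11, Slc16a6, Slc16a9 and Slc16a12, all higher in Akita samples. Of all tested genes, 8.61% were higher at that threshold and 13.4% passed it in either direction. Slc16a11 fell in Akita samples by 0.61 on the log2 scale (SE 0.16, adjusted p 0.0426 in limma), from 23.9 ± 9.85 TPM (n = 24) to 15.2 ± 5.93 TPM (n = 23). Only 3 of the 23 Akita libraries were above the nondiabetic median of 21.9 TPM. The call lay close to the threshold and was lost on leaving out any of 28 of 47 single libraries, with the highest adjusted p of 0.0735 without Akita wild-type vehicle replicate 4. The most abundant of the family was Slc16a9, with 179 TPM. Slc16a3, the lactate exporter MCT4, had 0.496 TPM, and Slc16a7, the carrier MCT2, 13.2 TPM (2.2 to 88.6).

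MCT1 needs the membrane glycoprotein basigin at the cell surface, and its gene Bsg was abundant with 473 TPM (246 to 844). It differed by 0.30 in averaged diabetes (SE 0.11, unadjusted p 0.00799, adjusted p 0.195 in limma). In that comparison 13.4% of tested genes reached an unadjusted p under 0.05 (8.61% counting only higher ones). The other chaperone, Emb, had 2.72 TPM, and Pdzk1, a scaffold of the brush border, 855 TPM. None of these 3 partners passed in averaged diabetes, knockout or dapagliflozin, where 0.966%, 0.0519% and 0% of tested genes did.

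Among 12 tested enzymes and carriers of lactate and pyruvate, 0 passed in the averaged comparisons of diabetes, knockout and dapagliflozin. The shares of all tested genes that passed were 0.966%, 0.0519% and 0%. The lactate dehydrogenase subunits Ldhb and Ldha had 312 and 268 TPM, with Ldhb higher in 34 of 52 libraries, and the D-lactate dehydrogenase Ldhd had 1092. Ldhb differed by 0.17 in averaged diabetes (SE 0.12, adjusted p 0.534 in limma). In that comparison 2 of the 12, Ldha and Pdha1, reached an unadjusted p under 0.05, both higher in Akita samples. Of all tested genes 13.4% did (8.61% counting only higher ones). Of 6 regulators and receptors, 2 were tested. Ppara, the nuclear receptor that drives genes of fatty acid oxidation and ketone production, had 53.4 TPM (24 to 84.5) and differed by 0.04 in averaged diabetes (SE 0.10) and by -0.11 with dapagliflozin (SE 0.10).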

How the data were processed

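Kidney tubules were captured by laser and their RNA sequenced with a stranded total RNA kit, per the labels' protocols. The deposited table holds log10 values of TPM, computed by the authors on GRCm38, per the submitters' processing notes. No source used here gives the aligner, annotation, read depth or scaling between libraries, and the labels give no batch. Of 54 samples 2 are not analysed here: replicate 2 of Akita wild-type dapagliflozin and replicate 1 of the semaglutide group. Replicates were numbered in the order of the labels. Counts were not used, so the counting error of a value is unknown.

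Values were turned back to TPM, and blanks were set to 0. For the 15424 genes whose mean reached 1 TPM, limma 3.58.1 in R 4.3.3 modelled log2(TPM + 1) by 9 group means (eBayes, trend and robust), with 20 contrasts and an adjusted p threshold of 0.05. A fold change on log2(TPM + 1) understates that of low genes. Scores are the mean log2(TPM + 1) of a marker list. Relations used numpy 2.4.6. Gene positions came from GENCODE vM21, promoters from RefSeq. The 6 genes and the lists were chosen with earlier results of these data known. Named by rule were the 6 genes, listed genes past the threshold (up to 4 per list), Bsg, Ldhb and Ppara, the 3 most alike genes of each, and Slc5a1 and Slc5a2. Part of what the rule names is not reported here. Other listed genes (such as Bdh2, Aacs, Slc16a6, Slc16a9, Slc16a12, Slc16a3, Slc16a7, Ldha and Ldhd) were named after their values were seen. Alternatives were another pseudocount (0.1), no filter, rescaling, array weights, covariates and left-out libraries.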

Additional observations from a re-analysis of the deposited data

How the results depend on the processing

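Of 3864 alternative fits of 1 of the 6 genes in a comparison, 0 passed the adjusted threshold, and the smallest adjusted p was 0.132. Across the 1410 alternatives of the named differences, 1351 kept their direction or came out at 0.00, and 59 changed sign, with neither value past the threshold. The cause was not tested. With the score of other cells as a covariate the log2 difference was -0.04 for Oxct1 in averaged diabetes. In averaged dapagliflozin it was -0.02 for Acat1, -0.03 for Slc5a8 and 0.04 for Slc5a12. In diabetes in wild-type vehicle it was -0.11 for Bdh1 and 0.60 for Slc5a12. For dapagliflozin in Akita wild-type it was -0.02 for Oxct1 and 0.23 for Slc5a12. For semaglutide it was 0.11 for Bdh1, 0.10 for Oxct1, 0.07 for Acat1 and -0.19 for Slc5a12. With the S1 and S2 score it was 0.34 for Slc5a12 in diabetes in wild-type vehicle and 0.11 for dapagliflozin in Akita wild-type. For semaglutide that score gave 0.07 for Bdh1, 0.04 for Oxct1, 0.01 for Acat1 and -0.38 for Slc5a12. With the percent of mitochondrial rRNA it was 0.01 for Acat1 in averaged knockout and 0.01 for Slc5a12 with dapagliflozin in Akita wild-type. Array weights gave 0.01 for Oxct1, 0.02 for Acat1 and 0.02 for Slc5a8 in averaged knockout and 0.01 for Oxct1 in averaged dapagliflozin. The log2 sum of TPM, a covariate chosen after seeing the data, gave 0.04 for Oxct1, 0.12 for Acat1 and 0.03 for Slc5a8 in averaged knockout. In diabetes in wild-type vehicle it gave -0.09 for Bdh1, -0.06 for Acat1 and 0.18 for Slc5a12, and for semaglutide 0.10 for Bdh1, 0.09 for Oxct1 and 0.14 for Acat1. Without the 3 libraries with the highest score of other cells, averaged dapagliflozin gave -0.01 for Bdh1, -0.06 for Acat1 and -0.05 for Slc5a8. Diabetes in wild-type vehicle then gave -0.22 for Bdh1, -0.02 for Oxct1, -0.14 for Acat1 and 0.69 for Slc5a12.

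Leaving out 1 library at a time changed the sign of some small differences. The ranges were -0.07 to 0.02 for Acat1 and -0.13 to 0.01 for Slc5a8 in averaged knockout, and -0.01 to 0.13 for Slc5a8 in averaged dapagliflozin. They were -0.06 to 0.21 for Bdh1 and -0.40 to 0.33 for Slc5a12 in diabetes in wild-type vehicle. For dapagliflozin in Akita wild-type they were -0.03 to 0.18 for Oxct1 and -0.34 to 0.29 for Slc5a12. For semaglutide they were -0.15 to 0.08 for Bdh1, -0.10 to 0.02 for Oxct1 and -0.34 to 0.58 for Slc5a12. Slc16a11 had an adjusted p of 0.0062 to 0.082 over the alternatives other than single libraries. It missed the threshold with the percent of mitochondrial rRNA (0.0603) or the log2 sum of TPM (0.082) as covariate and with the compared groups alone (0.0508). Leaving out the filter does not alter the relations, which use no filter. No paired analysis was possible because the labels give every library a number of its own and nothing ties samples of different groups together. The depth of the libraries is unknown.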
